A study of Arabidopsis thaliana with 8 samples.

Results

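The aquaporins of Arabidopsis thaliana are described here across 4 lines and 2 salt levels. The members were found by gene identifier, and all 35 were among the 32678 gene rows of the count tables: 13 plasma membrane intrinsic proteins (PIP, with 5 in PIP1 and 8 in PIP2), 10 tonoplast intrinsic proteins (TIP), 9 nodulin 26-like proteins (NIP) and 3 small basic proteins (SIP). Names are written with a hyphen where the reference annotation has a semicolon (PIP2-5), and AT1G17810 is called BETA-TIP as in that annotation. Total RNA of whole plants was sequenced in 8 libraries, 1 for each line at 75 mM and at 0 mM NaCl. T43-11 and T31-5 carried a fusion labelled 3F-VP16, in which VP16 is a viral activation domain and which the labels describe as giving tolerance of salinity. The empty vector line, labelled as having VP16 alone, and the wild type Col-0 were the controls. The sources used here do not name the promoter of the transgenes, plant age, growth medium, length of the salt treatment or number of plants in a library. Gene reads per library ranged from 13007480 in Col-0 at 75 mM to 22820814 in T31-5 at 75 mM.

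Aquaporins are membrane channels built as tetramers, each subunit with its own pore. PIPs carry water through the plasma membrane and TIPs through the vacuolar membrane, while NIPs pass small uncharged solutes such as boric acid and silicic or arsenous acid in addition to, or in place of, water. SIPs sit in the endoplasmic reticulum. Salt lowers the water potential around the root, and plants are known to adjust the amount, phosphorylation and membrane location of PIPs and TIPs under it.

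Some libraries stood apart from their labels. The libraries of T43-11 at 75 and at 0 mM were nearly equal, with a mean chi-square per gene of 1.42, against 50.5 to 63.3 for the same pair in the other 3 lines. In T43-11 at 0 mM the 4 salt-inducible check genes (RD29A, P5CS1, COR15A and RD22) summed to 1266 CPM, while the 75 mM libraries spanned 938 to 1236 CPM, and in the other lines the log2 ratio of that sum, 75 over 0 mM, was 1.59 to 1.95. T31-5 and the empty vector line at 0 mM were also nearly equal, with a mean chi-square of 1.44. Reads of the added row T43 were found in T43-11 (711 at 75 mM and 606 at 0 mM) and once in T31-5. Reads of the added row T31 were found in all 3 transgenic lines. They numbered 587 at 75 mM and 500 at 0 mM in T43-11, 67 and 106 in T31-5, and 68 and 83 in the empty vector line. The row T31 thus does not separate T31-5 from the empty vector line and was highest in T43-11. The salt calls of the members are therefore counted with and without T43-11, and their 3-line calls also with T31-5 and the empty vector line merged. Markers of root and shoot were present in all libraries, and the summed seed and pollen lists reached at most 0.364 and 0.0515 CPM.

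Aquaporins took 0.853 to 1.03% of the gene reads of a library. Per kb of exon, which allows different genes to be compared, PIPs held 51.7 to 54.9% of the family's summed level and TIPs 43.6 to 46.9%. The 3 SIPs held 0.946 to 0.999% and the 9 NIPs 0.339 to 0.563%. The order of the subfamilies was thus the same in all 8 libraries, with SIPs above NIPs despite their smaller number. Scaled by TMM factors, the summed level of the whole family hardly differed with salt. The log2 ratio of summed CPM, 75 over 0 mM, was 0.02 in T43-11 and 0.03 in T31-5. It was 0.03 in the empty vector line and 0.12 in Col-0. The unscaled share of gene reads was higher at 75 mM in each line. This share was 0.9702, 0.9437 and 1.0333% at 75 mM in T31-5, the empty vector line and Col-0, against 0.8626, 0.8533 and 0.8649% at 0 mM. In T43-11 it was 0.9821% at 75 mM and 0.9665% at 0 mM. The small ratios thus depend on the scaling, and the difference in share was not tested.

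A few genes carried most of this level. TIP1-2 (AT3G26520), a vacuolar channel of the gamma type, was the most abundant, with a mean over libraries of 1532 CPM per kb. TIP2-1 (AT3G16240), the delta type, which also passes ammonia, followed with 1092, and PIP2-1 (AT3G53420), a water channel of the plasma membrane and a target of the kinase OST1, with 915 CPM per kb. PIP1-2 (AT2G45960), which is known to contribute to shoot and root water transport, came next with 850.0 CPM per kb. TIP1-2 lay above TIP2-1 in every library, whereas the ranges of TIP2-1, PIP2-1 and PIP1-2 overlapped in neighbouring pairs. Of the 28 neighbouring pairs in the order of the 29 tested members, 20 had overlapping ranges. The plot of levels by library shows the gap between the abundant and the scarce members of PIP2, TIP and SIP.

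**Figure D1:**
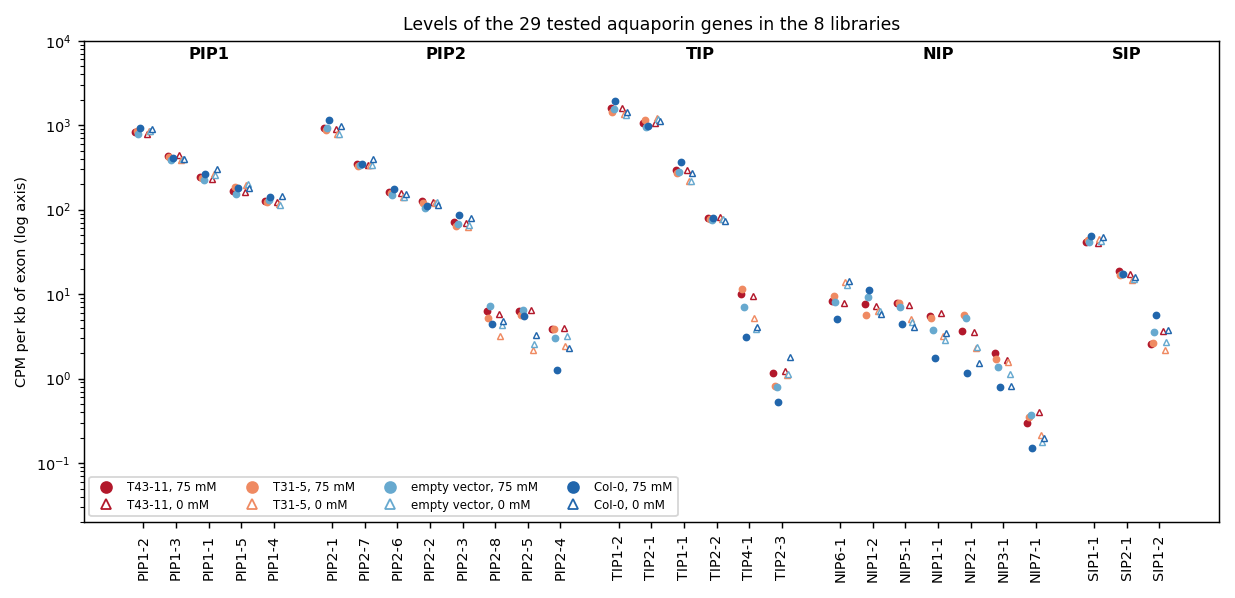
Level of each tested aquaporin in CPM per kb of exon on a log axis, by subfamily; filled circles are the 75 mM libraries and open triangles the 0 mM libraries of the 4 lines. TIP1-2, TIP2-1, PIP2-1 and PIP1-2 lie highest, and the highest NIP, NIP6-1, has a mean of 9.99 CPM per kb.

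All 5 PIP1 genes were abundant. PIP1-2 was at 1325, 1360.0, 1265 and 1467 CPM at 75 mM in T43-11, T31-5, the empty vector line and Col-0, against 1271, 1352, 1372 and 1447 CPM at 0 mM. PIP1-3 (AT1G01620) was at 674, 653, 603 and 631 CPM at 75 mM in the lines in that order, against 689, 601, 609 and 613 CPM at 0 mM. Neither gene separated the salt levels, and their log2 fold changes in the 3 lines without T43-11 were -0.05 ± 0.06 and 0.03 ± 0.06 (SE). PIP1-4 ranged from 228 to 290.2 CPM and PIP1-5 from 206 to 265 CPM over the 8 libraries. Highest over lowest library was 1.16 for PIP1-2 and 1.15 for PIP1-3.

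The 8 PIP2 genes fell into an abundant and a scarce set. PIP2-1 was at 1466, 1365, 1477 and 1796 CPM at 75 mM in T43-11, T31-5, the empty vector line and Col-0, against 1403, 1253, 1236 and 1526 CPM at 0 mM. It was higher at 75 mM in each of the 4 lines, but Col-0 at 0 mM lay above 3 of the 75 mM libraries. PIP2-7 (AT4G35100) was at 562, 531, 536 and 555 CPM at 75 mM, against 547, 537, 540.3 and 639.8 CPM at 0 mM in the same lines. Only Col-0 at 0 mM stood away from the others. PIP2-2, PIP2-3 and PIP2-6 had means of 159, 86.5 and 333 CPM. PIP2-3, first found as a gene responsive to desiccation, had a log2 fold change of 0.05 ± 0.06 in the 3 lines (edgeR, adjusted p = 0.536). PIP2-4, PIP2-5 and PIP2-8 stayed between 1.86 and 11.8 CPM.

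Tested tonoplast genes spanned means of 1532 CPM per kb for TIP1-2 to 1.07 CPM per kb for TIP2-3. TIP1-2 was at 2073, 1826, 2019.7 and 2506 CPM at 75 mM in T43-11, T31-5, the empty vector line and Col-0, against 2076, 1762, 1714 and 1837 CPM at 0 mM. Its annotation calls it salt-stress inducible, and in these libraries it was higher at 75 mM in T31-5, the empty vector line and Col-0 but did not pass the test (log2 0.23 ± 0.09 in 3 lines, edgeR adjusted p = 0.1001). TIP2-2 held between 99.1 and 112 CPM. TIP2-3, a close relative of TIP2-2 that is known from roots, held 0.619 to 2.11 CPM. TIP1-3 and TIP5-1, known from pollen, had 2 and 3 reads over all 8 libraries, and the seed genes TIP3-1 and BETA-TIP had 19 and 5 reads. These 4 genes, with NIP4-1 (0 reads, which allows up to 0.0188 CPM over the 8 libraries) and NIP4-2 (14 reads), both known from pollen, were too low to test.

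The NIPs and SIPs were low, except SIP1-1. SIP1-1 (AT3G04090) was at 53.9, 56.7, 54.0 and 62.5 CPM at 75 mM in T43-11, T31-5, the empty vector line and Col-0, against 52.2, 57.3, 54.6 and 60.6 CPM at 0 mM. SIP2-1 (AT3G56950) was at 23.9, 21.7, 22.5 and 22.3 CPM at 75 mM, against 22.4, 18.9, 19.2 and 20.3 CPM at 0 mM in the same lines. SIP2-1 was higher at 75 mM in each line, and without T43-11 its 75 mM libraries all lay above its 0 mM libraries, but it did not pass (log2 0.17 ± 0.07, edgeR adjusted p = 0.124). NIP1-1, NIP1-2, NIP2-1, NIP3-1, NIP7-1 and SIP1-2 ranged between 0.232 and 15.9 CPM.

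Salt response was asked of lines as replicates, 75 over 0 mM with line as a block. In the 4 lines, 0 of 29 tested members passed an adjusted p of 0.05 in edgeR's quasi-likelihood test, as did 0% of the 20585 tested genes. At an unadjusted p under 0.05 there were 3 members higher (PIP2-5, TIP1-1 and NIP5-1) and 1 lower (NIP6-1), beside 29.2% of genes. DESeq2 called 1 member, PIP2-5, beside 8.7% of genes. Leaving out T43-11 was chosen with its near-equal libraries known, so p-values of the 3-line fit depend on that choice. Without T43-11, 3 members were higher and 3 lower at 75 mM, which is 20.7% of those tested, against 29.8% of all tested genes (14.4% higher and 15.4% lower). The members' share is near that of all genes, and the difference was not tested. The median log2 fold change of the tested members was 0.12 in 3 lines and 0.07 in 4, beside 0.01 and 0.02 over all genes. By subfamily, 1 of 5 PIP1 genes passed (lower), 1 of 8 PIP2 genes (higher), 2 of 6 TIP genes (1 in each direction), 2 of 7 NIP genes (1 in each direction) and 0 of 3 SIP genes. The plot of the salt fits gives every member.

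**Figure D2:**
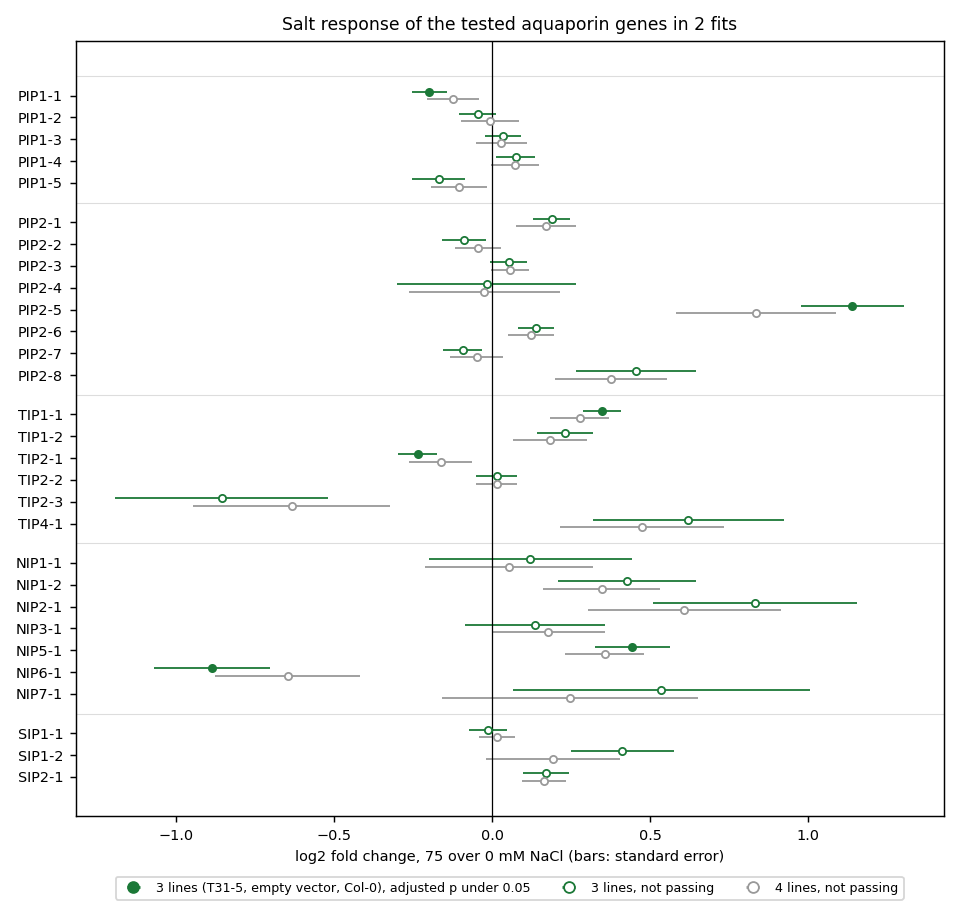
Log2 fold change, 75 over 0 mM NaCl, with standard error for each tested aquaporin, in the 3 lines without T43-11 (green) and in all 4 lines (grey); filled symbols passed an adjusted p of 0.05. The 6 filled symbols are PIP2-5, TIP1-1 and NIP5-1 on the right and NIP6-1, TIP2-1 and PIP1-1 on the left, each further from 0 than its grey counterpart.

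PIP2-5 (AT3G54820), a scarce plasma membrane water channel, had the highest fold change of the tested members. It was at 10.2, 11.8 and 9.74 CPM at 75 mM in T31-5, the empty vector line and Col-0, against 3.91, 4.55 and 5.96 CPM at 0 mM. Every 75 mM library lay above every 0 mM library. T43-11 held 11.4 CPM at 75 mM, with 11.6 CPM at 0 mM, at the height of the salted libraries in both. The log2 fold change was 1.14 ± 0.16 in 3 lines (SE, n = 3 lines, edgeR adjusted p = 0.0042) and 0.83 ± 0.25 in 4 (edgeR adjusted p = 0.119).

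TIP1-1 (AT2G36830), a vacuolar channel for water and small solutes, was at 334, 350.0 and 450.0 CPM at 75 mM in T31-5, the empty vector line and Col-0, against 272, 272 and 333 CPM at 0 mM. These 75 mM libraries too lay above all of those at 0 mM, although T31-5 at 75 mM was barely above Col-0 at 0 mM. T43-11 held 364 CPM at 75 mM and 360.2 CPM at 0 mM. The log2 fold change was 0.35 ± 0.06 in 3 lines (edgeR adjusted p = 0.0083) and 0.28 ± 0.09 in 4 (edgeR adjusted p = 0.128). TIP2-1 went the other way: it was at 1356, 1135 and 1153 CPM at 75 mM in T31-5, the empty vector line and Col-0, against 1464, 1422 and 1347 CPM at 0 mM. The groups overlapped, since T31-5 at 75 mM lay above Col-0 at 0 mM, but each line was lower at 75 mM (log2 -0.24 ± 0.06 in 3 lines, edgeR adjusted p = 0.032). In T43-11, TIP2-1 held 1258 CPM at 75 mM and 1252 CPM at 0 mM, and in the 4 lines its log2 fold change was -0.16 ± 0.10 (edgeR adjusted p = 0.309).

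The balance between both tonoplast groups is a measure chosen after the values were seen, built from members already seen to differ. Summed per kb, TIP1-1 and TIP1-2 stood to the TIP2 genes at 1.38 in T31-5, 1.79 in the empty vector line and 2.19 in Col-0 at 75 mM, against 1.21, 1.22 and 1.40 at 0 mM. All 3 lines had the higher ratio at 75 mM. T43-11 stood at 1.67 at both salt levels.

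NIP5-1 and NIP6-1 are the boric acid channels best known from roots and from shoot nodes. NIP5-1 (AT4G10380), which takes up boric acid into roots under boron limitation, was at 16.9, 15.2 and 9.74 CPM at 75 mM in T31-5, the empty vector line and Col-0, against 11.0, 10.2 and 8.88 CPM at 0 mM. Each line was higher at 75 mM, but Col-0 at 75 mM lay below the other lines at 0 mM. NIP6-1 (AT1G80760), which directs boric acid to young shoot tissue, was at 11.4, 9.74 and 6.19 CPM at 75 mM in the same lines, against 16.8, 15.6 and 17.5 CPM at 0 mM. Here no 75 mM library reached a 0 mM library. The log2 fold changes in 3 lines were 0.44 ± 0.12 for NIP5-1 (edgeR adjusted p = 0.034) and -0.89 ± 0.18 for NIP6-1 (edgeR adjusted p = 0.0195), and in 4 lines 0.36 ± 0.12 and -0.65 ± 0.23 (edgeR adjusted p = 0.133 and 0.136). T43-11 held 17.1 CPM of NIP5-1 at 75 mM and 16.1 CPM at 0 mM, and 10.06 CPM of NIP6-1 at 75 mM and 9.64 CPM at 0 mM. A ratio chosen after the values were seen, whose direction follows from both calls, is given as a description: per kb, NIP5-1 stood to NIP6-1 at 0.825, 0.870 and 0.880 at 75 mM in T31-5, the empty vector line and Col-0, against 0.365, 0.366 and 0.284 at 0 mM, and in T43-11 at 0.948 at 75 mM and 0.935 at 0 mM.

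PIP1-1 (AT3G61430), a plasma membrane gene whose products reach the membrane with PIP2 partners, was at 369, 346 and 415 CPM at 75 mM in T31-5, the empty vector line and Col-0, against 410.0, 402 and 469 CPM at 0 mM. It was lower at 75 mM in each of these lines, by less than the lines differed among themselves. T43-11 held 376 CPM at 75 mM and 363 CPM at 0 mM. The log2 fold change was -0.20 ± 0.05 in 3 lines (edgeR adjusted p = 0.0369) and -0.12 ± 0.08 in 4 (edgeR adjusted p = 0.343).

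**Figure D3:**
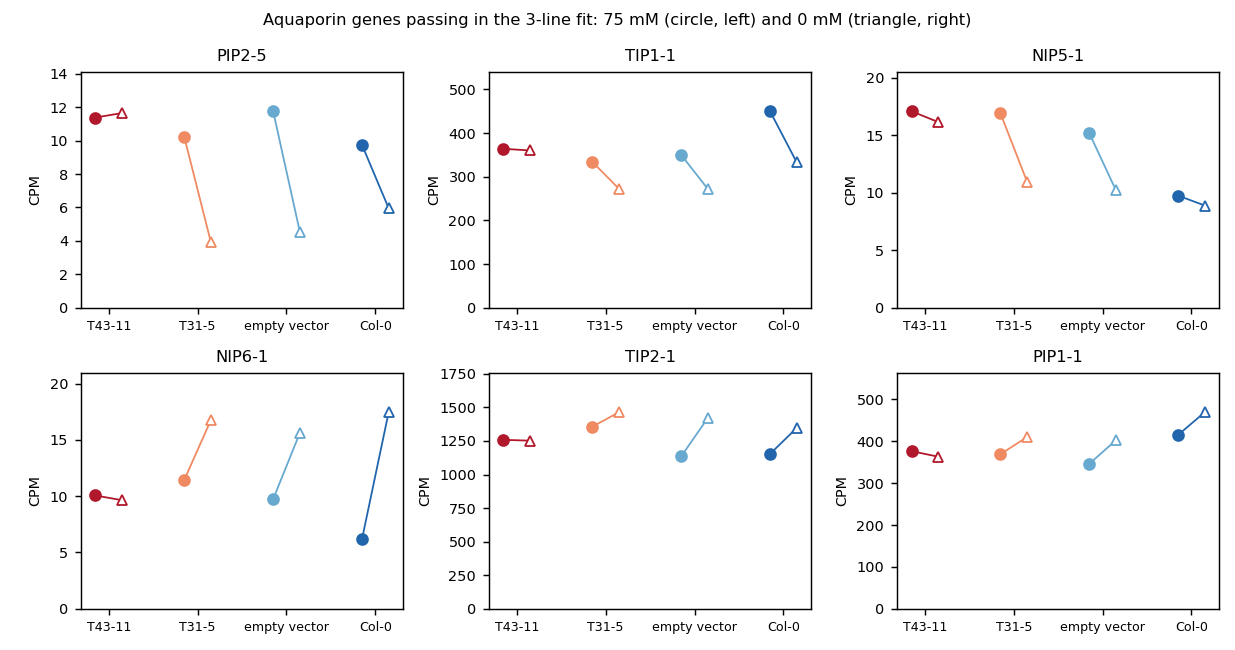
CPM of the 6 members that passed in the 3 lines without T43-11, in each of the 4 lines; circles are 75 mM, triangles 0 mM, and each line joins the pair of 1 line, with 1 library per point. In T43-11 the pairs are nearly level, at 11.4 and 11.6 CPM for PIP2-5, while in T31-5, the empty vector line and Col-0 they slope the same way in each panel.

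PIP2-5 passed under all 8 alternatives tried on the 3-line fit, with log2 fold changes of 1.03 to 1.35. The other 5 calls were lost under some alternatives, with log2 fold changes of the same sign, also under alternatives that kept all 3 lines. Without the empty vector line, 1 of 29 members passed (PIP2-5) beside 9.99% of genes, and adjusted p was 0.0818 for TIP1-1, 0.208 for NIP5-1, 0.0891 for NIP6-1, 0.271 for TIP2-1 and 0.266 for PIP1-1 (edgeR). In that fit the log2 fold changes stayed at 0.35 for TIP1-1 and -0.995 for NIP6-1. Without T31-5, adjusted p was 0.0379 for TIP1-1 and 0.0247 for NIP6-1, but 0.211 for NIP5-1, 0.0890 for TIP2-1 and 0.182 for PIP1-1 (edgeR), and NIP1-2 passed in addition, beside 15.5% of genes. Without Col-0, all 6 passed, with PIP2-1, PIP2-8, TIP4-1, NIP1-1 and NIP2-1 higher and PIP1-5 lower in addition, which is 12 of 29 members (41.4%) beside 38.6% of genes. That fit rests on T31-5 and the empty vector line alone, whose 0 mM libraries were nearly equal (mean chi-square 1.44), so its spread may be too small. With T31-5 and the empty vector line merged by summing their counts, only PIP2-5 passed (edgeR adjusted p = 0.0334), beside 13.5% of genes. In that fit the edgeR adjusted p was 0.0545 for TIP1-1, 0.178 for NIP5-1, 0.0535 for NIP6-1, 0.133 for TIP2-1 and 0.192 for PIP1-1. Without line as a block, PIP2-5 and NIP6-1 passed, 2 of 29 members beside 24.2% of genes. By DESeq2, PIP2-5 and TIP1-1 passed as higher and NIP6-1 and TIP2-1 as lower, beside 1817 and 2236 of 20585 genes. NIP5-1 and PIP1-1 did not pass there (DESeq2 adjusted p = 0.140 and 0.0861). With no filter on low counts, PIP1-1 stood at an edgeR adjusted p of 0.0565.

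The upstream windows of PIP2-5 and TIP1-1, the called water channels whose salt levels did not overlap, and of the boric acid channels NIP5-1 and NIP6-1 are shown because RD29A of the salt check list is a known target of factors that bind the abscisic acid response element core (ACGTG) and the dehydration response element core (CCGAC). Each window is the 250 bases before the annotated gene start, from RefSeq assembly TAIR10.1, on the strand of the gene, with matches on either strand in capitals: PIP2-5 at chr3:20301509-20301758 (+), TIP1-1 at chr2:15445044-15445293 (+), NIP5-1 at chr4:6435397-6435646 (-) and NIP6-1 at chr1:30352209-30352458 (-).
PIP2-5: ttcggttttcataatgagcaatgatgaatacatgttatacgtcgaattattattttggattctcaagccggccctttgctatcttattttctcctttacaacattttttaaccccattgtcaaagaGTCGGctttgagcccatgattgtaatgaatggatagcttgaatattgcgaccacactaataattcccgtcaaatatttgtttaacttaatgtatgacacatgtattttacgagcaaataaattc
TIP1-1: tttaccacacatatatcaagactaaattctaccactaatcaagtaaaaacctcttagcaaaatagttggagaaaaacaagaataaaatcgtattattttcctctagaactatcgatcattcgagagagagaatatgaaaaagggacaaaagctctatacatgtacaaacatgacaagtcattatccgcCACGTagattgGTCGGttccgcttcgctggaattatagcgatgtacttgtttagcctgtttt
NIP5-1: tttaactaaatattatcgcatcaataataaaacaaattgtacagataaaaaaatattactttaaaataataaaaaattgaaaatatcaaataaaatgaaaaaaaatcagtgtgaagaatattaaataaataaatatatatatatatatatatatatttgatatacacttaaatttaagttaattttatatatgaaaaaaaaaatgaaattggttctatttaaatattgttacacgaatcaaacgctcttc
NIP6-1: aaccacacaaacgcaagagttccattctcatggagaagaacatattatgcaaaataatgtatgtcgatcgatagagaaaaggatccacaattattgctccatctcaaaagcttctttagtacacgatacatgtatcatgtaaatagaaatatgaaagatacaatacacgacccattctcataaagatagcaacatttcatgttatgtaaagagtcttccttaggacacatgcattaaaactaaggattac

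PIP2-5 held 1 match of CCGAC and TIP1-1 held 1 of each motif, while these letters were not in the windows of NIP5-1 and NIP6-1. Over the tested genes, 23.8% of 20450 windows held ACGTG and 12.8% held CCGAC. Of the 29 tested members, 2 held ACGTG (TIP1-1 and SIP1-1) and 4 held CCGAC (PIP1-3, PIP2-5, TIP1-1 and TIP1-2). A match is a description of the letters and not a measured binding site.

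T43-11 was set against the other 3 lines in its salt response. This comparison was chosen with T43-11 already known to stand apart in these libraries, so its p-values are not an independent test. T43-11 has 1 library at each salt level, so the spread in this fit comes from the other 3 lines alone and T43-11 is assumed to vary as they do. No member passed, with 0 of 29 called by edgeR and 0 by DESeq2, beside 2.43 and 2.46% of all tested genes. At an unadjusted p under 0.05 there were 3 members, beside 19.1% of genes, all with a negative difference: PIP2-5 (log2 difference -1.19 ± 0.31, edgeR adjusted p = 0.116), TIP1-1 (-0.35 ± 0.12, edgeR adjusted p = 0.185) and SIP1-2 (-0.94 ± 0.32, edgeR adjusted p = 0.192). Without Col-0, PIP2-5, TIP4-1 and NIP2-1 passed with a negative and NIP6-1 with a positive difference, 4 of 29 members (13.8%) beside 13.7% of genes. The spread in that fit without Col-0 comes from T31-5 and the empty vector line, whose 0 mM libraries were nearly equal, and may be too small. At 0 mM, T43-11 lay nearer to the 75 mM mean of the other 3 lines than to their 0 mM mean for all 6 called members, as it did for 95.9% of the genes called in those 3 lines.

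Single lines were also read on their own, 1 library over 1 and without a test, on the 19 members that averaged 10 CPM or more. In Col-0, NIP6-1 was at least 2-fold lower at 75 mM, and no member 2-fold higher, beside 2.49% of 12067 genes lower and 3.3% higher. In T43-11, T31-5 and the empty vector line 0 members passed 2-fold in either direction, beside 0, 3.54 and 3.97% of genes. Over Col-0 at 75 mM, 0 members passed in T43-11, T31-5 or the empty vector line, beside 2.17, 2.93 and 1.13% of genes. Over Col-0 at 0 mM it was again 0 members, beside 7.48, 0.912 and 1.01% of genes. The 10 tested members below 10 CPM were not counted.

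Agreement between lines was counted as well. Without T43-11, 75 mM libraries all lay above 0 mM libraries for 3 members (PIP2-5, TIP1-1 and SIP2-1) and all below for 2 (NIP6-1 and TIP2-3), which is 10.3 and 6.9% of the tested members beside 23.8 and 20.5% of all genes. The level was higher at 75 mM in each of the 3 lines for 9 members and lower for 6, beside 33.3 and 29.3% of genes. In 4 lines no member separated the salt levels in either direction, beside 3.43 and 2.99% of genes, while 6 members were higher in every line and 1, TIP2-3, was lower, beside 17.5 and 15.1%.

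Both 3F-VP16 lines were compared with both control lines at each salt level, the contrast the study is named for. At 75 mM no member passed (0 of 29, as 0% of all genes, and 0 by DESeq2 beside 0.0874% of genes). At an unadjusted p under 0.05 there were 4 members, TIP4-1 and NIP1-1 with a positive and NIP1-2 and SIP1-2 with a negative log2 difference, beside 3.56% of genes. TIP4-1, a tonoplast channel, was at 11.8 and 13.7 CPM in T43-11 and T31-5 at 75 mM, against 8.29 and 3.63 CPM in the empty vector line and Col-0, with the 3F-VP16 lines above both controls (log2 1.06 ± 0.39, edgeR adjusted p = 0.999). At 0 mM, 0 members passed in edgeR and 0 in DESeq2, again as 0% of genes, and 0 members had an unadjusted p under 0.05 in edgeR, beside 5.3% of genes. In the difference of the salt response between the classes, 0 members and 0% of genes passed (0 members by DESeq2, beside 0.00972% of genes). NIP1-2 was the single member at an unadjusted p under 0.05, beside 3.62% of genes (log2 -0.77 ± 0.24, edgeR adjusted p = 0.968). NIP1-2, which is known to transport aluminium malate, was at 11.0 and 8.22 CPM in T43-11 and T31-5 at 75 mM, against 13.2 and 15.9 CPM in the empty vector line and Col-0. Its log2 ratio of 75 over 0 mM was 0.06 and -0.14 in T43-11 and T31-5, against 0.53 and 0.93 in the empty vector line and Col-0. TIP4-1, NIP1-1, NIP1-2 and SIP1-2 are named here after their values were seen. Each class held 2 lines, and the 3F-VP16 class at 0 mM included the T43-11 library that stood apart.

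Several scarce members differed in direction between lines, a set picked after the values were seen. NIP2-1, a root channel known for lactic acid efflux in low oxygen, had a log2 ratio of 75 over 0 mM of 1.29 in T31-5 and 1.12 in the empty vector line, but -0.39 in Col-0. TIP4-1 had 1.15, 0.87 and -0.40 in these lines, NIP1-1 had 0.70, 0.38 and -0.94, and PIP2-4 had 0.67, -0.10 and -0.81. PIP2-8 had 0.70, 0.75 and -0.11. In each of these genes Col-0 was lower at 75 mM and T31-5 was higher, and T43-11 lay between -0.12 and 0.12. The median log2 ratio of the 12 root genes was 0.81 in T31-5, 0.40 in the empty vector line, -0.44 in Col-0 and 0.04 in T43-11, but these genes were mixed. In Col-0, PYK10, EXPA7, RHD6 and MYB36 were higher at 75 mM (0.27, 0.30, 1.06 and 0.07) and the other root genes lower. Of those, EXPA18 and CASP5 were at 0.0773 CPM and MRN1 at 0 CPM in Col-0 at 75 mM. SCR and CASP5 were lower at 75 mM in T31-5, the empty vector line and Col-0. The summed root list, mostly the abundant root gene PYK10, was at 2309, 1984 and 1619 CPM at 75 mM in T31-5, the empty vector line and Col-0, against 1262, 1333 and 1370 CPM at 0 mM, while T43-11 held 2136 CPM with salt, against 2116 CPM without it. In the 3 lines, 3 of 11 tested root genes passed as higher, beside 14.4% of all genes, and 8 of 8 shoot genes as lower, beside 15.4%. Summed shoot levels were 33349 to 34997 CPM at 75 mM over all lines. At 0 mM they were 51397, 50526 and 57520 CPM in T31-5, the empty vector line and Col-0, and 33772 CPM in T43-11. The part of root and shoot share in the aquaporin results was not tested. In whole plants, fewer cells of a type and less RNA per cell cannot be told apart.

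**Figure D4:**
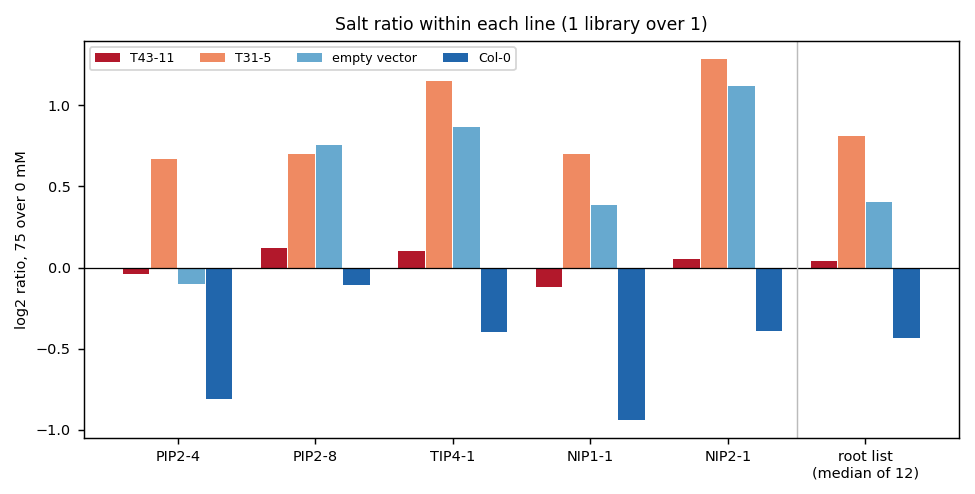
Log2 ratio of 75 over 0 mM within each line, 1 library over 1, for 5 scarce aquaporins and, right of the grey rule, the median of the 12 root marker genes. T31-5 stands above 0 and Col-0 below 0 in every group, and T43-11 stays near 0.

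Genes that act on or beside aquaporins were counted from lists. Of 11 regulators of aquaporin trafficking, phosphorylation and turnover, 1 passed as higher in the 3 lines and 1 as lower, with a median log2 fold change of -0.03, beside 14.4% of all genes higher and 15.4% lower. The higher gene was TSPO, which targets PIP2 proteins for autophagic degradation. It was at 1.86, 1.49 and 2.40 CPM at 75 mM in T31-5, the empty vector line and Col-0, against 0.24, 0.22 and 0.41 CPM at 0 mM, with no overlap (log2 2.70 ± 0.32, edgeR adjusted p = 0.0021). These 0 mM values rest on few reads, since 3 reads stand at 0.143, 0.167 and 0.154 CPM in those libraries. T43-11 held 2.82 CPM of TSPO at 75 mM and 3.30 CPM at 0 mM. The lower gene was OST1, the kinase of abscisic acid signalling that phosphorylates PIP2-1 (log2 -0.38 ± 0.08, edgeR adjusted p = 0.015). SYP121, SYP61, VAMP721 and VAMP722, which carry PIPs to the plasma membrane, and RMA1, RMA2 and RMA3, which include ubiquitin ligases of PIP2-1, did not pass. Of 7 boron exporters, 6 were tested and 2 passed as higher, beside 14.4% of genes: BOR2 (log2 0.81 ± 0.18, edgeR adjusted p = 0.0271) and AT3G06450 (0.44 ± 0.08, edgeR adjusted p = 0.0097). BOR1 did not pass (log2 -0.06 ± 0.13, edgeR adjusted p = 0.766). BOR2 was at 50.5, 30.8 and 17.2 CPM at 75 mM in T31-5, the empty vector line and Col-0, against 20.01, 19.9 and 12.7 CPM at 0 mM. In 4 lines, 0 genes of either list passed.

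Near-identical copies limit some of these values. PIP2-2 and PIP2-3 lie 2612 bases apart and share 94.8% of their coding bases, with an identical run of 242 bases, so how reads were split between them is uncertain. NIP4-1 and NIP4-2 share 88.1% and PIP1-1 and PIP1-2 share 87.6%, with identical runs of 74 and 41 bases. The called members PIP2-5, TIP1-1, TIP2-1, NIP5-1 and NIP6-1 share no more than 81.7% with any other member of their own group (PIP2, TIP or NIP). Identity between groups, such as PIP1 against PIP2, was not computed.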

How the data were processed

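Whole-plant RNA was measured in 8 libraries, and the authors deposited raw read counts per gene, 1 table a library. Per the submitters' processing notes, TopHat2 2.0.5 and HTSeq were used on TAIR10. The sources used here name no HTSeq version, counting mode or strand setting, and antisense or overlapping genes may share reads. Summary rows (2.49 to 2.60% of a library) and the added rows T31 and T43 stayed out of library sizes and tests.

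CPM were scaled by TMM factors, and exon lengths came from RefSeq TAIR10.1. A count of 0 allows up to 3 reads, 0.124 to 0.232 CPM per library. Intervals and floors cover counting error only. Tests used edgeR 4.0.16 in R 4.3.3 (TMM, robust quasi-likelihood) on 20585 genes with at least 0.468 CPM in 2 libraries, which left 29 of the 35 members, with Benjamini-Hochberg adjustment over all of them and a threshold of 0.05. Standard errors are the fold change over the square root of F. Line was the replicate and, in the salt fits, the block: both salt levels of a line come from the same line. The labels name no separate plants or cultures, and p-values cover the spread between these libraries, which may be technical. Class comparisons used class by salt means without a block, and the interaction fits kept the block. Single-line log2 ratios of CPM used a prior count of 2, and 2-fold was counted among the 12067 genes that averaged 10 CPM or more.

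Alternatives were RLE size factors, no filter, DESeq2 1.42.0, no block, T31-5 and the empty vector line merged, and each line left out. The fits were tested on simulated data. Members and lists were chosen with earlier results of these data known. By rule, full values are given for members that passed any test and the 2 most abundant of each subfamily, and others named are said to be chosen later. Python 3.11.15 was used for the descriptions.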

Additional observations from a re-analysis of the deposited data

Results flagged for a closer look

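In 58 groups of 4 libraries, 3 member values stood away from the rest of their group, and chance alone sets apart about 1 in 20 groups. PIP1-3 at 0 mM was 689 CPM in T43-11, above 601 to 613 CPM in the other lines. PIP2-7 at 0 mM was 639.8 CPM in Col-0, above 537 to 547 CPM in the other lines. NIP7-1, a boric acid channel known from anthers, was 0.619 CPM at 0 mM in T43-11, against 0.278 to 0.334 CPM in the other lines, with 12 reads behind the value. PIP2-2 was higher at 75 mM in both 3F-VP16 lines and lower in both control lines, a difference in log2 fold change of 0.16 ± 0.16 that did not pass the interaction test (edgeR adjusted p = 0.968).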

How the results depend on the processing

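Alternatives left no member with a passing value of the opposite sign. In 4 lines, DESeq2 called 1 member higher (PIP2-5), and leaving out single lines gave 0 to 3 members higher and 0 to 3 lower, the 3 in each direction without T43-11. Without the block, the 3-line fit called 1 higher and 1 lower (24.2% of genes), against 3 and 3 with it (29.8% of genes), and the 4-line fit called 0. The pairing comes from the lines themselves. With T31-5 and the empty vector line merged it called 1 higher and 0 lower, and with single lines left out 1 to 8 higher and 0 to 4 lower. The T43-11 interaction gave 0 to 1 higher and 0 to 3 lower when single lines were left out. Scaling by library size alone put 1 member past 2-fold higher in Col-0 at 75 over 0 mM, against 0 with TMM. It did the same for 1 member in T43-11 over Col-0 at 0 mM, again against 0 with TMM. Leaving out the TMM factors raises the ratio of every gene in both comparisons. The factors were 0.903 for unsalted Col-0, 0.994 for salted Col-0 and 1.039 for unsalted T43-11. The share of all genes past 2-fold under that scaling is not given here, so these member counts lack a background. The causes of the differences between settings were not tested. Of the other values checked, 1238 kept their side of the threshold, 20 lost a call and 18 gained one. Depth limits the scarcest members: NIP7-1 had 69 reads and TIP2-3 had 202 over all 8 libraries.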
